A study of Homo sapiens with 6 samples.

Results

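The genes that write, read and erase repressive chromatin marks were examined in NCI-H660 cells after silencing of MUC1. The set comprised 41 genes, chosen by name from 4 machineries, out of the 28008 gene symbols in the count table: 5 genes of Polycomb repressive complex 2 (PRC2), 10 of Polycomb repressive complex 1 (PRC1), 6 DNA methyltransferases and demethylases (DNMT/TET) and 20 subunits of the BAF and PBAF chromatin remodelers. H660 is an established line of neuroendocrine prostate cancer, and all libraries came from cells with a MUC1 short hairpin RNA under tetracycline control. The 3 DOXneg libraries (titled DOX_negative) were from cells given 0.1% DMSO as vehicle, and the 3 DOXpos libraries (titled DOX_positive) were from cells given doxycycline (DOX) at 500 ng/ml for 7 days, per the study's methods. No library with DOX and a control hairpin was analysed here, so an effect of DOX itself cannot be told apart from one of the hairpin, and the model is 1 line with 1 induced hairpin.

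PRC2 places methyl groups on lysine 27 of histone H3 through the catalytic subunits EZH2 or EZH1, and canonical PRC1 reads that mark through its CBX subunits and ubiquitinates histone H2A through RING1 or RNF2. DNMT1 copies DNA methylation after replication, DNMT3A and DNMT3B set new methylation, and the TET enzymes oxidize methylcytosine as a step toward its removal. BAF and PBAF slide or evict nucleosomes using the ATPases SMARCA4 or SMARCA2 and oppose Polycomb at many promoters. EZH2 and several BAF subunits are well known in neuroendocrine prostate cancer, in which neural genes are expressed.

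Libraries held between 47620696 and 74061121 counts. MUC1, the targeted gene, stood at 88.2, 90.2 and 79.6 CPM (library-size-normalized counts, scaled with TMM factors) in DOXneg and at 36.7, 37.2 and 29.9 CPM in DOXpos, a log2 fold change of -1.32 (SE 0.096, edgeR adjusted p = 0.00017). The groups did not overlap and lay in the direction of the labels. The 7 neuroendocrine markers summed to 1609 to 1814 CPM in DOXneg and 1342 to 1624 CPM in DOXpos, with NCAM1 and INSM1 called lower and the other 5 not called. By sign, 5 of the 7 were below 0 and 2 above. CHGB was higher without overlap (log2 fold change 0.29, edgeR adjusted p = 0.17), and ENO2, at 0.13, overlapped. The luminal markers KLK3 and KLK2 had under 10 counts in every library. Of 7 markers of other cell types, PTPRC, CD3E, PECAM1 and DCN had under 10 counts in every library, and the summed level of the list was 17.9 to 23.6 CPM in DOXneg and 13.5 to 18.6 CPM in DOXpos. VWF and LUM, both on that list, were called higher at means of 2.96 and 2.49 CPM in DOXpos. COL1A2, the remaining gene of that list and the one at the highest level, averaged 18.1 CPM in DOXneg and 11.1 CPM in DOXpos. Its groups did not overlap, but it was not called (log2 fold change -0.71, edgeR adjusted p = 0.20). Among 14 proliferation genes the median log2 fold change was 0.041 and 1, RRM2, was called higher. The part of these lists in the results that follow was not tested.

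Levels of the chromatin genes changed little when MUC1 was silenced. Of the 41 genes, 40 passed the filter on low counts and 3 were called at an adjusted p under 0.05: CBX2 rose, and DNMT3A and TET1 fell. That is 7.5% of the tested genes of the set, beside 4.87% of all 17026 tested genes, a share close to that background. In bulk RNA, less transcript per cell and fewer cells of a kind cannot be told apart. By direction, 1 of 40 was called higher against 2.91% of all tested genes, and 2 of 40 were called lower against 1.96%. The log2 fold changes ran from -0.40 to 0.33 with a median of -0.015, and the median absolute change was 0.089, beside 0.13 over all tested genes. The 3 replicates of DOXneg and of DOXpos did not overlap for 14 of the 40 genes (35%), beside 28.1% of all tested genes. Of these, 6 were higher, beside 14.8% of all tested genes, and 8 were lower, beside 13.3%.

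**Figure D1:**
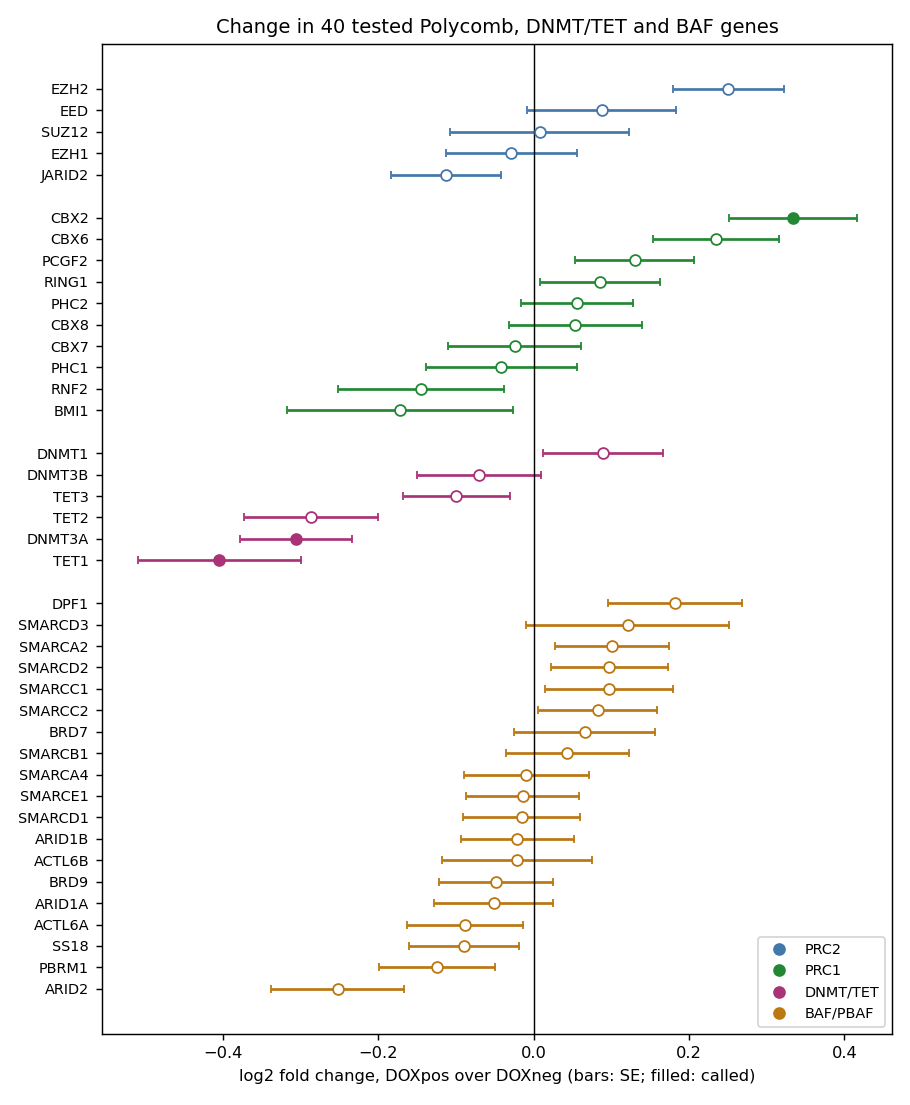
Log2 fold change of DOXpos over DOXneg (x axis) for the 40 tested genes, grouped by complex, with bars for the SE and filled points for genes called at an adjusted p under 0.05. CBX2 at 0.33 is the single filled point on the right, and DNMT3A at -0.31 and TET1 at -0.40 are the filled points on the left.

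Within PRC2 the 5 genes split, with EZH2 and EED above 0, EZH1 and JARID2 below, SUZ12 near 0 and none called. The median log2 fold change was 0.0075, beside 0.00034 over all tested genes. EZH2, the main catalytic subunit, was at 109, 111 and 109 CPM in DOXneg and at 134, 122 and 136 CPM in DOXpos. Every DOXpos library was above every DOXneg library. The means were 109.6 ± 1.04 and 130.4 ± 7.50 CPM (SD, n = 3). EZH2 thus differed by 0.25 on the log2 scale (SE 0.071), and the edgeR adjusted p of 0.066 missed the threshold.

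The scaffold SUZ12 was at 95.9, 107 and 111 CPM in DOXneg and at 111, 84.4 and 119.8 CPM in DOXpos. DOXpos replicate 2 was the lowest and DOXpos replicate 3 the highest of all 6 libraries, so the spread within DOXpos covered the whole DOXneg range and the log2 fold change of 0.0075 (SE 0.11, edgeR adjusted p = 0.98) gives no direction. JARID2, an accessory subunit that helps place the complex, was at 52.7, 52.1 and 53.2 CPM in DOXneg and at 48.1, 48.6 and 49.5 CPM in DOXpos. These groups did not overlap, but the log2 fold change was only -0.11 (SE 0.070, edgeR adjusted p = 0.39). EED, which binds the methylated histone tail, and EZH1, the alternative catalytic subunit, overlapped between the groups, at log2 fold changes of 0.088 and -0.029. RefSeq names 2 pseudogenes of SUZ12 and 1 of EED. Outside PRC2 it names, among others, 1 each of DNMT3A and TET1 and 7 each of SMARCE1 and BRD7. How the counting treated reads shared with pseudogenes is not given in the sources used here.

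In PRC1, CBX2 rose and the other 9 genes were not called. The median log2 fold change was 0.055, with 6 genes above 0 and 4 below. CBX2, a chromodomain subunit that compacts chromatin and spans chr17:79777311-79787983 (GRCh38.p14), was at 111, 106 and 100.02 CPM in DOXneg and at 119.8, 141 and 138 CPM in DOXpos. The groups did not overlap, and DOXpos replicate 1 lay nearest to DOXneg. The means were 106 ± 5.47 and 133 ± 11.7 CPM (SD, n = 3), a rise of 26.0%, which is 0.33 on the log2 scale (SE 0.082, edgeR adjusted p = 0.041).

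CBX6, a less studied relative of CBX2, was at 149.8, 144 and 129.7 CPM in DOXneg and at 154, 168 and 176 CPM in DOXpos. Its groups did not overlap either, and the log2 fold change of 0.23 (SE 0.081) had an edgeR adjusted p of 0.12. PHC2, a polyhomeotic subunit and the PRC1 gene with the highest level per length, was at 137.1, 136.5 and 136.1 CPM in DOXneg and at 138.9, 152.3 and 134.6 CPM in DOXpos, with overlapping groups and a log2 fold change of 0.055 (SE 0.072). The E3 ligase genes RING1 and RNF2 had log2 fold changes of 0.086 and -0.15 and neither was called. PCGF2 and BMI1, alternative partners of those ligases, were each separated between the groups, PCGF2 with a log2 fold change of 0.13 and BMI1 with -0.17, and neither passed the test. BMI1 had only 89 to 129 counts per library. It overlaps the readthrough entry COMMD3-BMI1, which is listed at 0 in every library, and how reads shared by both entries were counted is not given in the sources used here. CBX8, another chromodomain subunit, was at 19.9, 20.4 and 18.1 CPM in DOXneg and at 20.96, 20.3 and 19.4 CPM in DOXpos. Its groups overlapped, at a log2 fold change of 0.054 (SE 0.086, edgeR adjusted p = 0.78). CBX7 and PHC1 overlapped too, at -0.025 and -0.042.

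The DNMT/TET genes lay mostly below 0: DNMT3A and TET1 fell, TET2, TET3 and DNMT3B had negative fold changes that were not called, and DNMT1 was slightly above 0. The median log2 fold change was -0.19, and the groups were separated for 4 of the 6 genes, all lower in DOXpos, beside 13.3% of all tested genes separated in that direction. DNMT3A, the larger de novo methyltransferase transcript pool in these cells, spans chr2:25227874-25342590 and was at 77.2, 78.0 and 77.2 CPM in DOXneg and at 62.5, 66.2 and 59.3 CPM in DOXpos. The DOXneg replicates lay within 1 CPM of each other and well above DOXpos. The means were 77.5 ± 0.481 and 62.7 ± 3.47 CPM (SD, n = 3), which gave a fold change of -0.31 on the log2 scale (SE 0.072, edgeR adjusted p = 0.034).

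TET1, a dioxygenase with a CpG-binding domain, spans chr10:68560337-68694487 and was at 162, 183 and 182 CPM in DOXneg and at 157, 119.2 and 121 CPM in DOXpos. The groups were separated only narrowly, since DOXpos replicate 1 was close to DOXneg replicate 1. The means were 175.5 ± 11.96 and 132.5 ± 21.5 CPM (SD, n = 3), which gave a fold change of -0.40 on the log2 scale (SE 0.11, edgeR adjusted p = 0.049). TET2, which lacks that domain, was at 64.6, 70.5 and 71.2 CPM in DOXneg and at 62.1, 51.2 and 55.7 CPM in DOXpos. Its groups were also separated, with DOXpos replicate 1 again the nearest to DOXneg, and the log2 fold change of -0.29 (SE 0.086) had an edgeR adjusted p of 0.077. TET3, separated between the groups, was at a log2 fold change of -0.099 and DNMT3B, which overlapped, at -0.071, and neither was called. DNMT1, the maintenance enzyme, was at 484, 479.6 and 419 CPM in DOXneg and at 488, 499.6 and 482 CPM in DOXpos. DOXneg replicate 3 was the low library, the other 5 lay together, and the log2 fold change was 0.089 (SE 0.077, edgeR adjusted p = 0.56). Over the 40 tested genes of the set, DOXneg replicate 3 was the lowest library for 15, beside 23.3% of all tested genes. It was the highest library for 8, beside 24.0%.

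To show the regulatory DNA beside the values, the 250 bases before the most upstream RefSeq start are printed for DNMT3A (chr2:25342591-25342840, minus strand), TET1 (chr10:68560087-68560336, plus strand) and EZH2 (chr7:148884292-148884541, minus strand) on GRCh38.p14, each from 5′ to 3′ on the strand of the gene. DNMT3A and TET1 are the called genes with a window in the RefSeq table, and EZH2 is the PRC2 gene with the largest change. Capitals mark matches, on either strand, to the E-box CACGTG, an E2F-type element TTCCCGCC, the GC box GGGCGG or the CCAAT box, and overlapping matches run together.
DNMT3A: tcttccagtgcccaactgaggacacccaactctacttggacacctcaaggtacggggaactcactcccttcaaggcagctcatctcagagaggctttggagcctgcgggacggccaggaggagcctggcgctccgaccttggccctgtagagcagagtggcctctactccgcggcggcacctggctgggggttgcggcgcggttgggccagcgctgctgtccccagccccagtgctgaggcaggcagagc
TET1: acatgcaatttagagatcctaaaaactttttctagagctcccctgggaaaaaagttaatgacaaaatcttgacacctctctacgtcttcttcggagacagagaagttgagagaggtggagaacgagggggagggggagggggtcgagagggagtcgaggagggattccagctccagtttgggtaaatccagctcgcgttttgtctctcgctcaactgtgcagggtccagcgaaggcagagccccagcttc
EZH2: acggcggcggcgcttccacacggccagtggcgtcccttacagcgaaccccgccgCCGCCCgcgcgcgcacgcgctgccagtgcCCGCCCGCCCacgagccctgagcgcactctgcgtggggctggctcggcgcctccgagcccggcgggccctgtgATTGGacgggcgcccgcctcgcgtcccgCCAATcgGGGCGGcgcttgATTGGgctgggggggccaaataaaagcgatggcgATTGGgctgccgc
EZH2 had 4 GC boxes and 4 CCAAT boxes in this window, and DNMT3A and TET1 had none of the 4 motifs. The windows also differed in CpG count, with 38 in EZH2, 12 in DNMT3A and 9 in TET1. Of the 41 genes, 35 had a promoter in the RefSeq table, and CBX2, CBX8, SMARCC1, SMARCC2, ARID2 and ACTL6A did not. The windows of DNMT3B, PCGF2 and TET3 lay inside the RefSeq span of the gene, not before it. For 24 of the 35, the first 30 transcribed bases occurred in a GENCODE transcript of the same symbol. The shares below cover all 35 windows. The E-box was present in 17.1% of the 35 and in 6.46% of all 27305 genes with a window, the E2F-type element in 5.71% and 2.77%, the GC box in 57.1% and 42.2%, and the CCAAT box in 42.9% and 33.0%. The 35 windows had a median GC content of 66.8%, against 57.6% for all genes, noncoding genes included. Matches are a description of letters, and no binding was measured.

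The BAF and PBAF subunits changed little, at a median size of 0.082 on the log2 scale regardless of sign, beside 0.088 for PRC2. Of 20 genes, 19 were tested and none was called, at a median log2 fold change of -0.014, with 8 genes above 0 and 11 below. At an unadjusted p under 0.05 there was 1, ARID2. DESeq2 and limma-voom also called none of them, while edgeR with GC and length trends removed called ARID2 (adjusted p = 0.027). SMARCA4, the main ATPase, was at 526, 515 and 453 CPM in DOXneg and at 485.5, 524 and 475 CPM in DOXpos. The groups overlapped and the log2 fold change was -0.0096 (SE 0.081, edgeR adjusted p = 0.96).

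SMARCC1, a core scaffold subunit, was at 583, 565 and 522 CPM in DOXneg and at 584, 551 and 650.1 CPM in DOXpos, with overlapping groups and a log2 fold change of 0.096 (SE 0.082). ARID2, the DNA-binding subunit that defines PBAF, was at 67.1, 69.3 and 67.6 CPM in DOXneg and at 62.6, 50.5 and 58.0 CPM in DOXpos. Its groups were separated, with DOXpos replicate 2 farthest from DOXneg, and the log2 fold change of -0.25 (SE 0.086) had an edgeR adjusted p of 0.11. PBRM1, the other PBAF-specific subunit with many bromodomains, was separated in the same direction at -0.12, and BRD7, a further PBAF subunit, overlapped at 0.065. DPF1, the neural PHD-finger subunit, was at 22.2, 22.5 and 23.9 CPM in DOXneg and at 25.7, 27.9 and 24.2 CPM in DOXpos. These groups were just separated, at a log2 fold change of 0.18 (SE 0.086, edgeR adjusted p = 0.25). SMARCA2, the alternative ATPase, was the fourth separated BAF/PBAF gene, at 0.10. Separated genes made up 21.1% of the 19 tested, beside 28.1% of all tested genes. ACTL6B, the actin-like subunit of neuronal BAF, overlapped at -0.022, and DPF3 had 1 or 2 counts per library and was not tested. The remaining 11 subunits (SMARCB1, SMARCC2, SMARCD1, SMARCD2, SMARCD3, SMARCE1, ARID1A, ARID1B, BRD9, ACTL6A and SS18) overlapped between the groups, from -0.090 for SS18 to 0.12 for SMARCD3.

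**Figure D2:**
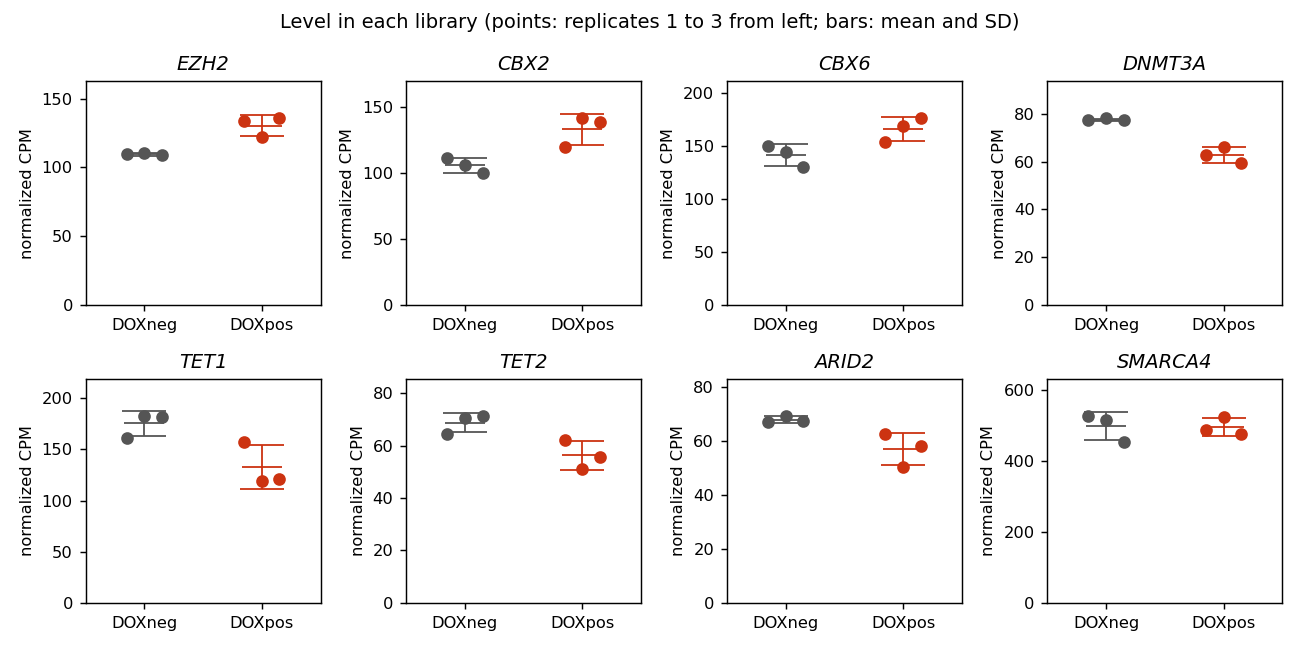
Normalized CPM (y axis, from 0) of 8 genes in each library, with 3 points per group in the order of replicates 1 to 3 and bars for the mean and SD. EZH2 and DNMT3A have tight DOXneg replicates at 109 to 111 and 77.2 to 78.0 CPM, whereas TET1 and TET2 have a DOXpos replicate 1 that sits next to the DOXneg points and SMARCA4 has overlapping groups.

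The order of levels within each machinery was compared per length, as TPM averaged over all 6 libraries. SMARCC1 stood highest at 54.7 TPM, followed by DNMT1 at 47.6, SMARCA4 at 46.0, SMARCC2 at 45.6 and ACTL6A at 43.7 TPM. Neighbours in this order differed by less than the SD between libraries, which was 9.23 TPM for SMARCC1 in DOXneg. That SD compares libraries and does not measure the order of genes within a library. Within each library, the ratio of SMARCC1 to SMARCC2 lay between 1.08 and 1.31. EZH2 led PRC2 at 22.4 TPM, ahead of SUZ12 at 12.9, EED at 7.28, JARID2 at 4.43 and EZH1 at 2.57 TPM. In PRC1 the order was PHC2 at 18.4, CBX6 at 13.5, CBX2 at 13.0, CBX8 at 7.78 and PCGF2 at 7.61 TPM, with BMI1 last at 0.29 TPM. How reads shared by BMI1 and COMMD3-BMI1 were counted is not given, so the level and rank of BMI1 are uncertain. Among the other DNMT/TET genes TET1 was at 8.69, TET3 at 8.11, DNMT3A at 6.25, DNMT3B at 2.40 and TET2 at 2.18 TPM. TPM also depended on RN7SK, a small nuclear RNA chosen for mention after its values were seen, which held 21.2 to 27.1% of TPM, and in DOXneg replicate 3 on SNORD3A, which held 34.5%. TPM was therefore used for levels and ratios within a library and CPM for comparisons between libraries.

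**Figure D3:**
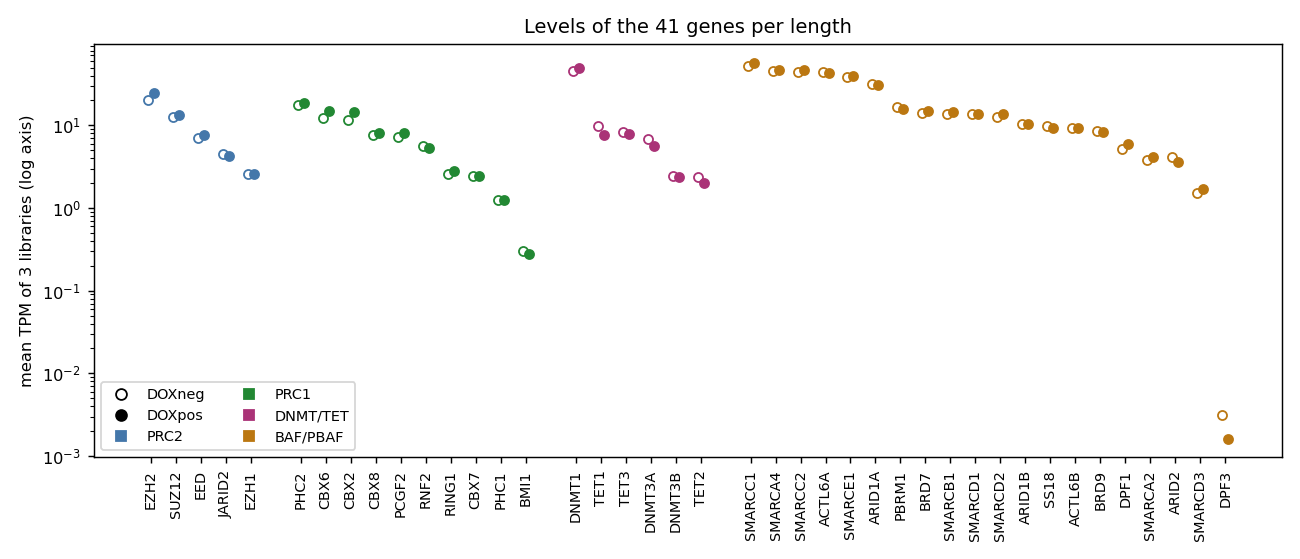
Mean TPM of 3 libraries (y axis, log scale) for the 41 genes, ordered by level within each complex, with open points for DOXneg and filled points for DOXpos. The levels run from 54.7 TPM for SMARCC1 averaged over both groups down to 0.29 for BMI1 and 0.0024 for DPF3, and open and filled points nearly coincide for most genes. The BMI1 level may leave out reads shared with COMMD3-BMI1.

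Pairs of related genes within a machinery were compared as the ratio of their TPM in each library. The ratio could be formed for 18 of 19 pairs, and with 3 libraries against 3 the exact two-sided permutation test cannot give a p below 0.10. EZH2 was 8.09, 8.22 and 7.17 times EZH1 in DOXneg and 9.80, 8.77 and 9.86 times EZH1 in DOXpos, without overlap (exact p = 0.10, adjusted p = 0.36 over the pairs). CBX2 to CBX8 was 1.57, 1.46 and 1.55 in DOXneg and 1.61, 1.95 and 2.00 in DOXpos, also without overlap (exact p = 0.10, adjusted p = 0.36). DNMT3A to DNMT3B was 2.77, 2.93 and 2.72 in DOXneg and 2.39, 2.49 and 2.28 in DOXpos, again separated (exact p = 0.10, adjusted p = 0.36). In each of these 3 pairs the first gene was separated between the groups in CPM and the second was not.

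Among the remaining pairs, BMI1 to PCGF2 went from a geometric mean of 0.042 to 0.034 and SMARCD1 to SMARCD2 from 1.09 to 1.01, each without overlap. The ratio of BMI1 to PCGF2 carries the limit on reads shared with COMMD3-BMI1. The ATPase ratio of SMARCA4 to SMARCA2 was 12.04 in DOXneg and 11.2 in DOXpos, and the actin-like ratio of ACTL6A to ACTL6B was 4.79 and 4.59, both overlapping. SMARCA4 and ACTL6A thus remained the larger pools in every library, with ratios of 10.7 to 12.7 and 3.72 to 5.19. TET1 to TET3 was 1.17 in DOXneg and 0.94 in DOXpos, and DOXpos replicate 1, at 1.17, lay inside the DOXneg range. No pair had an adjusted p below 0.36.

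Other genes of the same pathways came from a list of 57, of which 54 were tested. EZHIP was not among the count table's symbols, and DNMT3L and BCL11B did not pass the filter. The median log2 fold change of the 54 was -0.0068, and 3 were called (5.56%, beside 4.87% of all tested genes), 2 higher and 1 lower, with MBD6 among the former and MBD5 the latter. MBD5 and MBD6 are related proteins of the Polycomb deubiquitinase, PR-DUB, which removes the PRC1 mark from histone H2A. MBD6 was at 112.5, 114.2 and 101.2 CPM in DOXneg and at 132.1, 148.2 and 137.6 CPM in DOXpos, a log2 fold change of 0.35 (SE 0.078, edgeR adjusted p = 0.027). MBD5 was at 16.4, 16.6 and 18.3 CPM in DOXneg and at 13.3, 12.5 and 11.4 CPM in DOXpos, a log2 fold change of -0.46 (SE 0.094, edgeR adjusted p = 0.020). Neither overlapped between the groups, and the related genes lay on opposite sides of 0, with MBD6 at the higher level per length at 16.5 against 1.33 TPM. A further 4 genes, named after their values were seen, came close to the threshold: PHC3 at -0.32 (edgeR adjusted p = 0.054), BCL7B at 0.33 (0.057), PHF19 at 0.24 (0.082) and UHRF1 at 0.24 (0.092).

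The calls of CBX2, DNMT3A and TET1 were each lost when any 1 of several libraries was left out. The adjusted p of CBX2 was 0.059, 0.16 and 0.20 without DOXneg replicates 1, 2 and 3 and 0.053 and 0.10 without DOXpos replicates 2 and 3, in edgeR. That of DNMT3A was 0.091, 0.16 and 0.13 without DOXneg replicates 1, 2 and 3 and 0.069 and 0.10 without DOXpos replicates 1 and 3. TET1 was not called without DOXneg replicate 2 (0.18), DOXneg replicate 3 (0.20), DOXpos replicate 2 (0.12) or DOXpos replicate 3 (0.13), and without DOXpos replicate 1 its log2 fold change was -0.55. Their directions were the same in all 20 alternatives, with log2 fold changes of 0.29 to 0.40 for CBX2, -0.34 to -0.24 for DNMT3A and -0.55 to -0.33 for TET1. In the other direction, EZH2 was called without DOXpos replicate 2 (log2 fold change 0.30, edgeR adjusted p = 0.020) and TET2 without DOXpos replicate 1 (-0.36, edgeR adjusted p = 0.042). DESeq2 called both, at adjusted p of 0.037 and 0.038, along with CBX2, DNMT3A and TET1. Of the further genes, MBD5 was not called without DOXneg replicate 2 (adjusted p of 0.081), DOXneg replicate 3 (0.11) or DOXpos replicate 3 (0.057), and MBD6 was not called without those 3 (0.096, 0.15 and 0.054) or DOXneg replicate 1 (0.054), in edgeR. Over all genes, 829 were called with 6 libraries and between 58 and 1035 with 5.

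**Figure D4:**
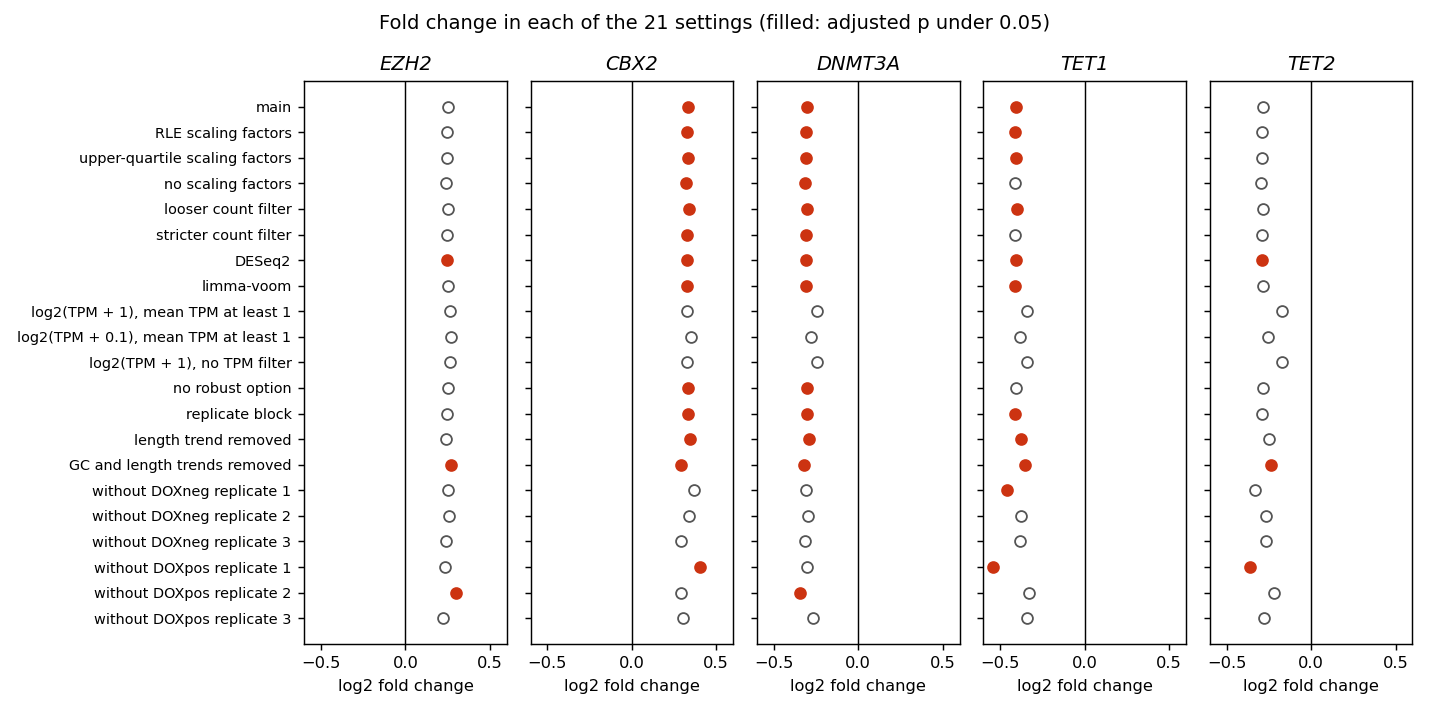
Log2 fold change (x axis) of EZH2, CBX2, DNMT3A, TET1 and TET2 in the edgeR fit and 20 alternatives (y axis), filled where the adjusted p was under 0.05. All points of a gene stay on 1 side of 0, between 0.22 and 0.30 for EZH2 and between -0.36 and -0.17 for TET2, while the fill changes with the setting.

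GC content and the fold changes were correlated within the set, and only weakly over all tested genes. Across the 40 tested genes, the Pearson correlation between the GC content of the longest transcript and the log2 fold change was 0.40, and over 15832 tested genes it was 0.10. These are descriptions across genes that share libraries and base composition. TET1, TET2 and ARID2 had GC contents of 41.04, 43.05 and 40.8%, and CBX2 and CBX6 had 59.7 and 59.8%. EZH2, at 42.7%, and DNMT3A, at 53.7%, did not follow that order. With trends in GC content and length removed from each library, the correlation across the 40 was 0.18, and 6 of them were called by edgeR, beside 12.6% of all tested genes. They were EZH2 at 0.27, CBX2 at 0.29, DNMT3A at -0.32, TET1 at -0.35, TET2 at -0.24 and ARID2 at -0.21 on the log2 scale.

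**Figure D5:**
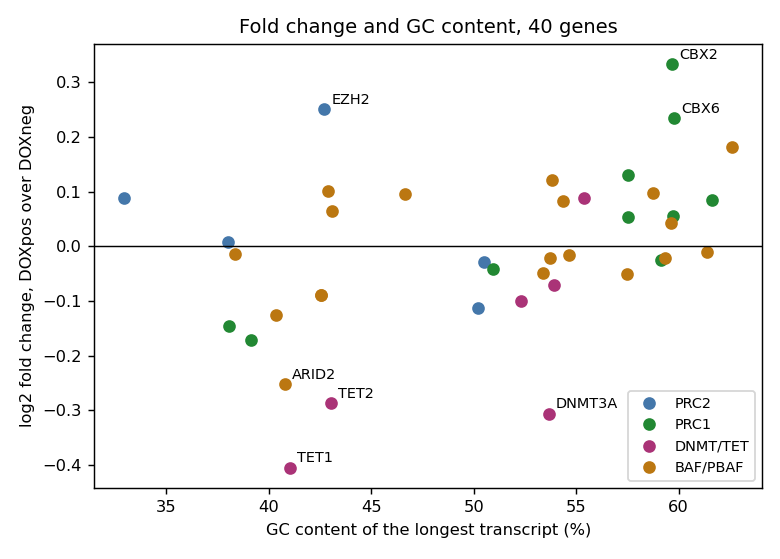
Log2 fold change of DOXpos over DOXneg (y axis) against the GC content of the longest transcript in percent (x axis) for the 40 tested genes, colored by complex, with names for those at an unadjusted p under 0.05. TET1, TET2 and ARID2 lie low on the left and CBX2 and CBX6 high on the right, with EZH2 high on the left at 42.7% and 0.25.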

How the data were processed

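Counts per gene symbol were deposited by the authors as raw values in 6 columns, and the authors also deposited TPM, a level per gene length that sums to the same amount in every library. Per the submitters' processing notes, STAR and GRCh38 were used, and DESeq2 for the authors' own testing; versions, counter, strand setting and annotation are not given in the sources used here. The labels give a stranded mRNA kit. Groups and replicate numbers came from the sample titles. Whether triplicates were separate cultures is stated only as culture in triplicate, so p values measure the spread between these libraries.

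Counts were filtered (filterByExpr), scaled by TMM and tested with edgeR 4.0.16 in R 4.3.3 (robust quasi-likelihood, 2-sided, Benjamini-Hochberg over all 17026 tested genes). The biological coefficient of variation was 9.58%. Each SE of a log2 fold change was derived as its absolute value divided by the square root of the edgeR F statistic. The threshold for a call was an adjusted p of 0.05, and changes are given as log2 of DOXpos over DOXneg. DESeq2 1.42.0, limma 3.58.1 (voom, and log2 TPM plus a pseudocount of 1 or 0.1), other scalings and filters, a replicate block, offsets for GC and length, and leaving out each library were alternatives. GC content came from GENCODE v29 transcripts and was found for 93.0% of tested genes and for all 40 tested members. Gene positions and promoters came from RefSeq (GRCh38.p14), and all 41 symbols matched its gene table. Code was tested on simulated counts.

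The genes and lists were chosen with earlier results of these data known. Given in full were called genes and, per complex, the 2 with the largest absolute change and the 2 with the highest TPM; TET2 and CBX8 were added after their values were seen. Of the further pathway genes, called ones were named, except 1 that is not reported here.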

Additional observations from a re-analysis of the deposited data

How the results depend on the processing

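The number of the 41 genes called was 3 with RLE or upper-quartile factors, the looser filter, limma-voom, the length offsets and the replicate block, and 2 without scaling factors, with the stricter filter and without the robust option, where TET1 was lost. It was 5 with DESeq2, 6 with GC and length trends removed, and 0 in each of the 3 limma fits to log2 TPM, in which 11 to 35 genes in all were called. Without 1 library it ranged from 0 to 3. The number of further pathway genes called, 3 in the reported fit, was 6 with DESeq2, 9 with GC and length trends removed, 5 with the replicate block, 5 with the length trend removed and 0 in the TPM fits, and 0 to 4 without 1 library. With the replicate block, 998 genes were called in place of 829, and 3 of the 41, the same number as without it. Deviations from the group means of same-numbered libraries correlated at -0.58, 0.028 and -0.071 over 14256 genes. Deviations from a mean of 3 libraries depend on each other. These values therefore cannot show whether same-numbered libraries shared a culture or batch. Over all genes, 1355 were called by DESeq2 and 2144 with GC and length trends removed. The cause of these differences was not tested.

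The DNMT/TET median log2 fold change was -0.12 on log2(TPM + 1) with or without the TPM filter, -0.16 with the length trend removed, and -0.20 to -0.16 without 1 library. The PRC2 median, which is the value of SUZ12 in the reported fit, ranged from -0.051 to 0.14 without 1 library. MUC1 missed the threshold once, on log2(TPM + 1) with no filter (log2 fold change -1.22, limma adjusted p = 0.11). SUZ12, near 0, turned to -1.4e-05 with the stricter filter, -0.0019 with limma-voom and -0.0055 with the replicate block, and ranged from -0.097 to 0.14 without 1 library. SMARCA4 turned to 0.015 on log2(TPM + 1), 0.016 on log2(TPM + 0.1) and 0.0045 with the length trend removed, and ranged from -0.079 to 0.032 without 1 library. CBX2 and DNMT3A lost their call in 8 of 20 alternatives each and TET1 in 10, and none of these 3 changed direction. Of 144 paralog ratio changes under alternatives, 138 kept the reported direction, and the other 6 came from leaving out 1 library in 3 pairs near 0, with ranges of -0.052 to 0.085 for SMARCC1 to SMARCC2, -0.10 to 0.056 for SMARCD2 to SMARCD3 and -0.15 to 0.088 for ACTL6A to ACTL6B on the log2 scale. With 3 libraries per group, SE ran from 0.069 to 0.15 on the log2 scale, and even differences of several SE went uncalled. In the reported fit, EZH2 at 0.25 (SE 0.071) and TET2 at -0.29 (SE 0.086) both missed the threshold. A gene that was not called may therefore still have changed by amounts of that size.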
